A study of Mus musculus with 6 samples.

Results

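Metallothioneins and zinc transporters were examined in mouse small intestinal organoids treated with MMK-1, a peptide agonist of the formyl peptide receptor FPR2. The set holds 10 of the 21397 genes in the expression table: the metallothioneins Mt1, Mt2, Mt3 and Mt4, the zinc-sensing transcription factor gene Mtf1, the importers Slc39a4, Slc39a5 and Slc39a8, and the exporters Slc30a1 and Slc30a10. The genes were picked by name because the level of Mt4 was among those that were lowest with MMK-1 relative to control, so the comparison for Mt4 is given as a description with no test. The other 9 genes came in as relatives of Mt4 in function, and their values come from the same 6 libraries.

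The organoids were grown in Matrigel from crypts of Fpr2f/f mice on a C57BL/6J background, which carry the floxed Fpr2 alleles without Cre in both groups. The control group received 0.1% DMSO and the other group received MMK-1 for 5 days. The treatment field of the labels gives the dose as 1 mM, whereas the protocol gives 1 μM. Each group has 3 libraries, and each sample came from the organoids of 3 mice. Whether the samples of a group came from different mice is not given in the sources used here. The spread within a group is that between samples and may not measure variation between mice. Values are FPKM, fragments scaled for gene length and for the depth of the library.

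Library depth lay between 35512739 and 37537463 fragments. MMK-1 replicate 3 stood apart. Its fragments differed from those of MMK-1 replicates 1 and 2 with a chi-square of 34.4 and 29.4 per degree of freedom, whereas all pairs within a group that leave it out lay between 2.78 and 4.78. Values without it are given below. Markers of epithelial cell types differed between the groups. Over all 10551 genes tested, 48.5% rose and 24.7% fell at an adjusted p of at most 0.05. Of 13 enterocyte markers tested, 11 fell and 1 rose (Fabp1, the liver-type fatty acid binding protein), and their summed FPKM was 15056 to 15210 in control and 10438 to 11248 in MMK-1 libraries. All 8 stem cell markers rose, with a summed FPKM of 77.7 to 79.7 in control and 413 to 442 with MMK-1, as did the 7 Paneth cell markers tested, with sums of 394 to 436 and 1280 to 1407. In bulk RNA, fewer cells of a type and less RNA per cell cannot be told apart. The part of these markers in the results below was not tested.

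Metallothioneins are small, cysteine-rich proteins that bind zinc and copper in the cytosol. Their genes are a classic target of MTF1, a zinc finger factor that senses free zinc and binds metal response elements in promoters. SLC39 (ZIP) proteins move zinc into the cytosol from outside the cell or from organelles, and SLC30 (ZnT) proteins move it out of the cytosol. In the small intestine, Slc39a4 encodes the apical carrier for zinc uptake from the lumen, Slc39a5 a carrier of the basolateral membrane, and Slc30a1 the main zinc exporter of the plasma membrane. Slc39a8 carries manganese as well as zinc, and Slc30a10 is known mainly as a manganese exporter. Mt1 and Mt2 are expressed in most tissues, Mt3 mainly in brain, and Mt4 in stratified squamous epithelia.

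The 4 metallothionein genes lie in 1 cluster of 43.1 kb on chromosome 8 (GRCm38.p6, RefSeq annotation), from 94137204 to 94180327, in the order Mt4, Mt3, Mt2, Mt1. Mtf1 lies at chr4:124802549-124849800, Slc39a4 at chr15:76612383-76618506, Slc39a5 at chr10:128395927-128401276 and Slc39a8 at chr3:135816882-135888572. Slc30a1 (chr1:191906697-191913248) and Slc30a10 (chr1:185454848-185468762) share chromosome 1. The promoters of the 3 metallothioneins that averaged 1 FPKM or more are shown because they differ in the number of matches to the core of the metal response element. Each is the RefSeq GRCm38.p6 plus strand from 250 bases before to 50 bases after a transcript start, 5′ to 3′. Capitals mark TGCACNC or TGCGCNC on either strand, and the reverse strand matches read GNGTGCA or GNGCGCA. The Mt1 window is placed around a start that lies inside the annotated gene, since RefSeq also lists a transcript that begins further upstream.
Mt1, chr8:94178839-94179138: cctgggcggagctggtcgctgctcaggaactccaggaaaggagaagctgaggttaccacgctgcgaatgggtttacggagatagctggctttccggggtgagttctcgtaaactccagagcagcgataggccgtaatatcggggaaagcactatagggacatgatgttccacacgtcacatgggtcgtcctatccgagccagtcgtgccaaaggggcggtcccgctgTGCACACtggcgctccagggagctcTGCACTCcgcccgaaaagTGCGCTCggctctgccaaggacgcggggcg
Mt2, chr8:94172368-94172667: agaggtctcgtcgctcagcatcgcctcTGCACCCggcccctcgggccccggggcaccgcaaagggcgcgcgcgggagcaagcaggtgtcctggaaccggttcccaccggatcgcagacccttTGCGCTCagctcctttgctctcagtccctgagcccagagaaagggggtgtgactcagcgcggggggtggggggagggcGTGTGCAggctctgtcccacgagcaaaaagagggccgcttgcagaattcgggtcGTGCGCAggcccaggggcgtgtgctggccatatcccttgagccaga
Mt4, chr8:94136954-94137253: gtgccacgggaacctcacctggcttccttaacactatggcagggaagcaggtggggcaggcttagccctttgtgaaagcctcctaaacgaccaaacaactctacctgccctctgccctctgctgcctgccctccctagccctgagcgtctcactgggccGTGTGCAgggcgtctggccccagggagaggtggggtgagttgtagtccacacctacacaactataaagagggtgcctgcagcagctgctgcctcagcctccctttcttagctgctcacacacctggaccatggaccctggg

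The core matched 3 times in the Mt1 window, with matches beginning at −23, 2 and 20 relative to the transcript start, and 4 times in the Mt2 window, at −223, −128, −50 and 4. It matched 1 time in the Mt4 window, at −91. Of 32851 mouse promoters of the same length, 25.7% held at least 1 match, 1.97% at least 3 and 0.517% at least 4. Promoter windows were found for 9 of the 10 genes, 11 in all. The Mt3 window held 1 match, Mtf1 0, Slc30a1 2 and Slc30a10 3, of which 2 overlap on opposite strands. Slc39a5 and Slc39a8 have 2 windows each, and 1 of them held 1 match in both genes. The core of the antioxidant element, TGACNNNGC, was found 1 time in the Mt2 and Slc30a1 windows, 2 times in 1 window of Slc39a5 and 1 time in 1 window of Slc39a8, against 12.4% of all promoters with at least 1 match. These are matches of letters in windows placed around annotated starts, and matches outside the windows were not counted. Binding was not measured.

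**Figure D1:**
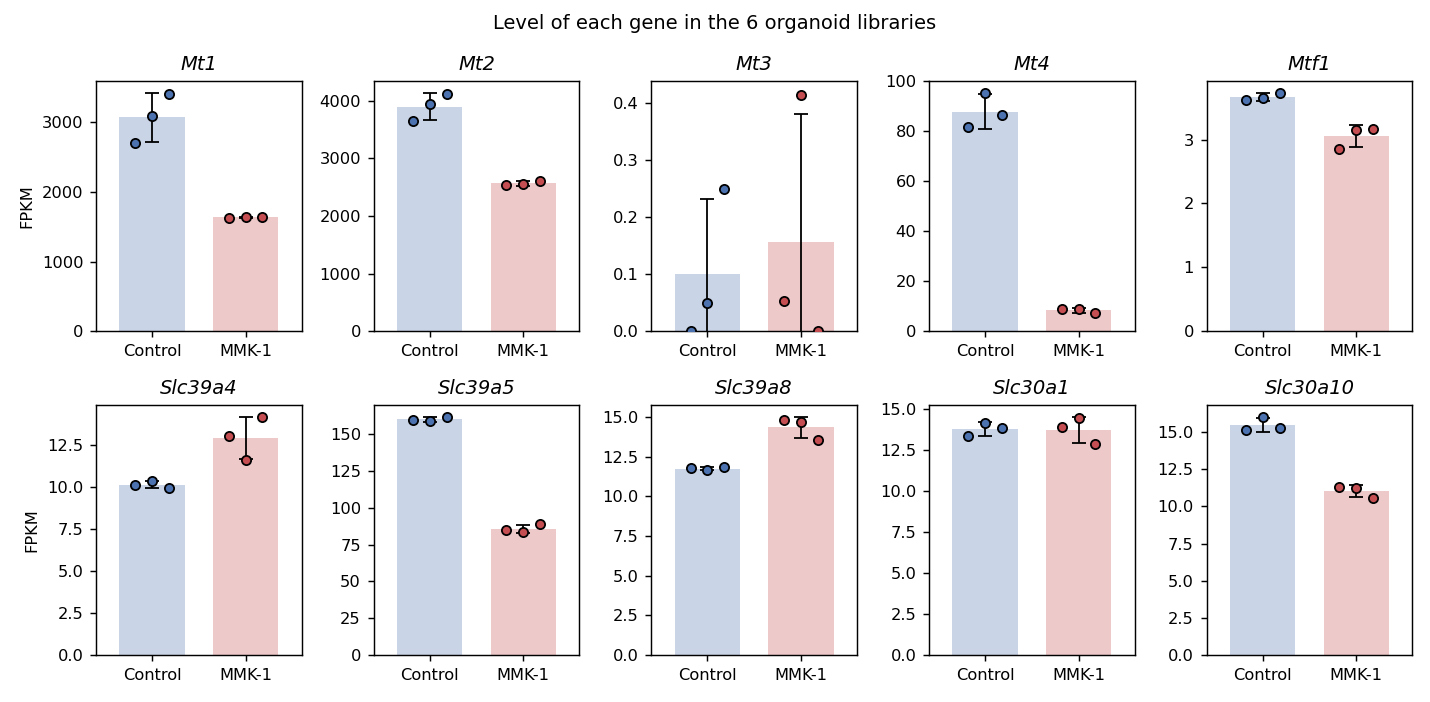
Level of each of the 10 genes in FPKM (vertical axes, all from 0) in the 3 control libraries (blue) and the 3 MMK-1 libraries (red). Bars show the mean, error bars the SD and points the libraries. The groups are separate for 8 genes and overlap for Mt3, which is near 0, and Slc30a1.

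Of the 10 genes, Mt4 had the largest fold difference between the groups. Its FPKM was 81.6, 95.3 and 86.7 in the 3 control libraries, against 8.79, 8.97 and 7.16 with MMK-1, and the groups were far apart. The ratio of the group means, 87.9 ± 6.94 (SD, n = 3) to 8.31 ± 0.995 (SD, n = 3), was 10.6-fold. Behind these levels stood 1195, 1399 and 1267 fragments in control and 122, 126 and 104 with MMK-1, so the lower levels still rest on more than 100 fragments each. Ranked by FPKM among all genes, Mt4 stood between 708 and 818 in control libraries and between 5651 and 6418 with MMK-1.

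On log2(FPKM + 1), the difference for Mt4 was −3.26, the 4th lowest among the 10551 genes that averaged 1 FPKM or more and were tested. The genes just below it were Reg3b (−5.05), which encodes an antimicrobial lectin, Clec2h (−3.89), a C-type lectin gene, and Slc15a1 (−3.44), the gene of the apical peptide transporter. Those just above it were Sardh (−3.22), encoding sarcosine dehydrogenase, S100g (−3.08), encoding a calcium-binding protein of enterocytes, and Reg3a (−3.05), another antimicrobial lectin gene. Mt4 is the only metallothionein in this range. The rank belongs to this scale, in which the pseudocount of 1 compresses low levels. The ratio of control to MMK-1 means was 49.9 for Sardh and 8.75 for S100g, against 10.6 for Mt4.

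Stratified squamous epithelium, the tissue in which Mt4 is best known, left almost no transcripts in these libraries. Of 8 listed markers, which include keratin genes, all had a mean FPKM under 0.1, and their sum was 0.116 to 0.144 in control and 0.0968 to 0.155 in MMK-1 libraries. The Mt4 level in control libraries thus came with squamous markers near 0.

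The genes whose pattern over the 6 libraries was most like that of Mt4 were Sardh, Slc15a1, Eci3, Ces1g and Aldh1a1. The measure was the root mean square difference in log2(FPKM + 1) centred on the control mean, which was 0.140 for Sardh, 0.174 for Slc15a1, 0.190 for Eci3, 0.212 for Ces1g and 0.220 for Aldh1a1. Sardh had 10.7, 9.92 and 10.1 FPKM in the control libraries and 0.221, 0.177 and 0.217 with MMK-1. Aldh1a1, a retinaldehyde dehydrogenase gene, was the most abundant of them, with 443, 428 and 434 FPKM in control and 51.1, 52.4 and 54.6 with MMK-1. Eci3 encodes an enoyl-CoA isomerase of fatty acid oxidation and Ces1g a carboxylesterase. The pseudocount of 1 compresses low levels, so likeness on this scale is not an equal fold: the ratio of control to MMK-1 means was 60.5 for Ces1g, 49.9 for Sardh, 18.7 for Eci3, 13.5 for Slc15a1 and 8.25 for Aldh1a1, against 10.6 for Mt4. These genes were selected for this likeness, which is a description over 6 libraries.

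Mt1 and Mt2 were among the most abundant transcripts of the organoids and both fell with MMK-1. Mt1 stood at 2709, 3092 and 3412 FPKM in control and at 1631, 1639 and 1643 with MMK-1. The 3 MMK-1 libraries were nearly equal, while the control libraries were spread over a wider range, and the groups did not overlap. The mean was 3071 ± 352 (SD, n = 3) in control and 1637 ± 6.15 (SD, n = 3) with MMK-1, which is 1.88-fold lower. The log2 fold change was −0.90 ± 0.0746 (SE), with a 95% interval of −1.07 to −0.73 and an adjusted p of 8.2e-06 by limma. The coefficient of variation was 11.5% in control and 0.376% with MMK-1, close to the counting error of the libraries (0.250% to 0.371%).

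By FPKM, Mt2 was the most abundant of the 4 metallothioneins in both groups. The values imply a gene length of 556 bases for Mt2 and 1258 for Mt1, and by fragments Mt1 was ahead. Summed over libraries, Mt1 had 434119 fragments in control and 223678 with MMK-1, against 243347 and 154953 for Mt2. The order of the 2 genes and the level of their ratio thus rest on the lengths used. The FPKM of Mt2 was 3639, 3942 and 4104 in control libraries and 2538, 2548 and 2612 with MMK-1, again with no overlap. The mean fell from 3895 ± 236 (SD, n = 3) to 2566 ± 40.1 (SD, n = 3), 1.52-fold lower, with a log2 fold change of −0.60 ± 0.0502 (SE), and the adjusted p was 8.7e-06 by limma. By FPKM, Mt2 ranked 6 to 7 among all genes in control libraries and 10 to 11 with MMK-1, and Mt1 ranked 9 to 11 and 20 to 24. The 2 genes are close paralogs, and how reads shared between them were counted is not given in the sources used here. Mt2 is also overlapped by the antisense gene Gm45774 in GENCODE, and whether strand was used in counting is not given either.

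The shares of the metallothioneins shifted as well. Mt1 and Mt2 together held 1.39%, 1.52% and 1.61% of the summed FPKM in the control libraries and 0.919%, 0.927% and 0.938% with MMK-1. Mt4 made up 1.27%, 1.34% and 1.14% of the summed metallothionein FPKM in the control libraries and 0.210%, 0.214% and 0.168% with MMK-1. The Mt1 to Mt2 ratio was 0.787 ± 0.0435 (SD, n = 3) in control and 0.638 ± 0.00808 (SD, n = 3) with MMK-1 and did not overlap between groups (exact two-sided permutation p = 0.1). That is the smallest p that 3 against 3 libraries allow, and the same p was found for each tested gene whose groups did not overlap. The Mt1 to Mt2 ratio, like the ratios below, was chosen after its values were seen.

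Mt3 was close to the detection limit. It had 0, 1 and 5 fragments in control and 1, 8 and 0 with MMK-1, at most 0.249 and 0.414 FPKM. A count of 0 allows up to 3 fragments, or 0.149 FPKM in control replicate 1 and 0.150 in MMK-1 replicate 3, and intervals of this kind cover counting error only. No difference was detectable at this depth, and the gene was not tested.

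The neighbours of the cluster did not show the pattern of Mt4. Bbs2, which encodes a component of the ciliary BBSome and lies on the Mt4 side, had a mean of 2.43 FPKM in control and 2.51 with MMK-1 (log2 fold change 0.03, adjusted p = 0.653 by limma). Nup93, a nuclear pore gene on the Mt1 side, rose from 1.65 to 3.00 FPKM (log2 fold change 0.59, adjusted p = 2.6e-05 by limma). The non-coding gene Gm39226 next to Bbs2 had 0 fragments in control and 2 with MMK-1. Gm39227, which lies between Mt3 and Mt2, had 2 fragments in each group. Gm39228, between Mt1 and Nup93, was not analysed here.

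**Figure D2:**
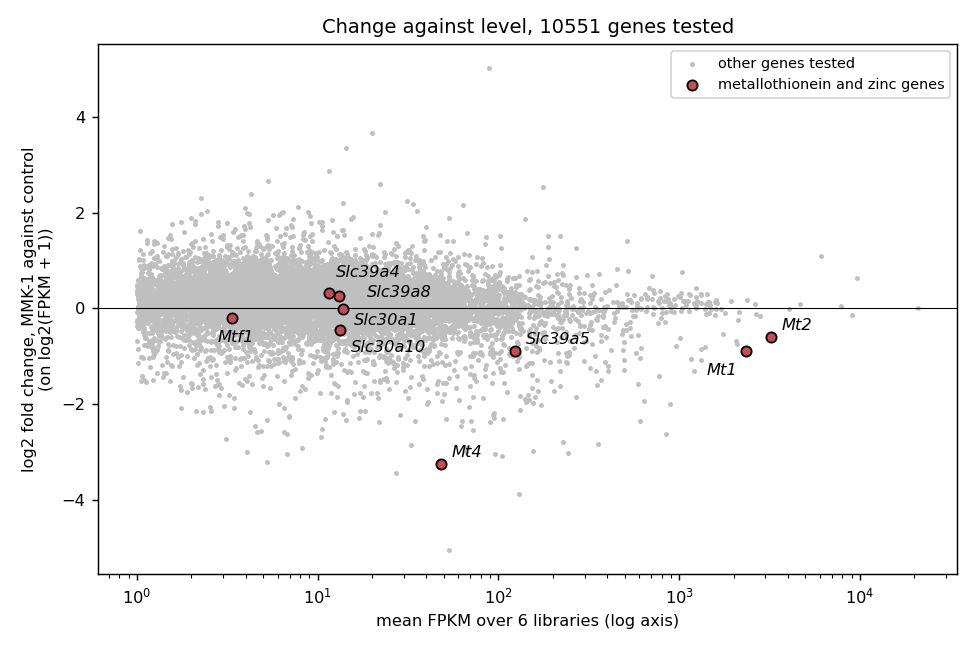
Log2 fold change of MMK-1 against control on log2(FPKM + 1) (vertical axis) against mean FPKM over the 6 libraries (horizontal log axis) for the 10551 genes tested in grey, with the 9 genes of the set that passed the filter in red. Mt4 lies far below the others at −3.26, while Mt1 and Mt2 sit at the abundant end at −0.90 and −0.60.

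Of the 10 genes, 9 passed the filter of 1 FPKM on average. Apart from Mt4, 8 genes were tested: 2 rose, 5 fell and 1 did not pass an adjusted p of 0.05. Over all 10551 genes tested, 48.5% rose and 24.7% fell by the same rule. Groups did not overlap for 2 genes that were higher and 6 that were lower, Mt4 included, against 50.5% and 26.3% of all genes. At a fold change of at least 2 with p of at most 0.05, 3.39% of all genes were higher and 3.65% lower, and Mt4 was the 1 gene of the set past that fold. With TMM scaling Mt1 (−1.05) and Slc39a5 (−1.05) were past it as well, and with the GC trend removed Slc39a5 was (−1.03). The set was chosen through Mt4, and nothing is read from these counts. The median log2 fold change was −0.46 over the 9 genes, Mt4 included, and 0.13 over all genes tested. Nothing is read from this difference either.

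Mtf1 was expressed at a low level and fell. Its FPKM was 3.62, 3.65 and 3.73 in control libraries and 2.86, 3.15 and 3.16 with MMK-1, and the highest MMK-1 library stayed below the lowest control library. The log2 fold change was −0.20 ± 0.0535 (SE), with a 95% interval of −0.32 to −0.08 and an adjusted p of 0.0079 by limma. The means were 3.67 ± 0.0576 (SD, n = 3) and 3.06 ± 0.171 (SD, n = 3). The log2 fold change was −0.32 with TMM scaling and −0.42 with the length trend removed.

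The importers moved in both directions. Slc39a5, the basolateral carrier, was the most abundant of the 3 and the 1 that fell. It stood at 159, 159 and 162 FPKM in control libraries and at 84.6, 83.3 and 88.9 with MMK-1, with little spread in either group and a wide gap between them. The mean fell 1.87-fold from 160.2 ± 1.57 (SD, n = 3) to 85.6 ± 2.93 (SD, n = 3), with a log2 fold change of −0.90 ± 0.0393 (SE), and the adjusted p was 1.9e-07 by limma.

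Slc39a4, the apical uptake carrier, rose. Its FPKM was 10.1, 10.3 and 9.95 in control libraries and 13.0, 11.6 and 14.1 with MMK-1, where the spread was wider than in control. The mean rose from 10.1 ± 0.194 (SD, n = 3) to 12.9 ± 1.27 (SD, n = 3), with a log2 fold change of 0.32 ± 0.0664 (SE), with a 95% interval of 0.17 to 0.47 and an adjusted p of 0.0023 by limma. It was 0.18 with TMM scaling (adjusted p = 0.0312) and 0.21 with the length trend removed (adjusted p = 0.0138). The Slc39a5 to Slc39a4 ratio within a library was 15.8 ± 0.443 (SD, n = 3) in control and 6.66 ± 0.463 (SD, n = 3) with MMK-1. It lay between 15.4 and 16.3 in control and between 6.30 and 7.18 with MMK-1 (exact two-sided permutation p = 0.1).

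Slc39a8, a carrier of zinc and manganese, rose in the reported fit. Its FPKM was 11.7, 11.7 and 11.8 in control libraries and 14.8, 14.6 and 13.6 with MMK-1, with MMK-1 replicate 3 nearest to control. The log2 fold change was 0.27 ± 0.0467 (SE), and the adjusted p was 8.3e-04 by limma. It kept its direction and its call under both other scalings, with 0.19 under the upper quartile (adjusted p = 0.0075) and 0.12 under TMM (adjusted p = 0.0476). With the trend over gene length removed it was 0.052 (adjusted p = 0.294), and with the trend over GC content removed the sign turned, to −0.089 (adjusted p = 0.118). TMM scaling also moved the median of all genes tested from 0.13 to 0.0016, and Slc39a8 lay above the median in both fits.

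The exporters differed from each other. Slc30a10, the manganese exporter, fell from 15.2, 16.05 and 15.3 FPKM in the control libraries to 11.3, 11.2 and 10.6 with MMK-1, with no overlap. The means were 15.5 ± 0.476 (SD, n = 3) and 11.03 ± 0.418 (SD, n = 3). The log2 fold change was −0.46 ± 0.0468 (SE), and the adjusted p was 3.1e-05 by limma. Slc30a1, the zinc exporter and a target of MTF1, had 13.4, 14.2 and 13.9 FPKM in control and 13.9, 14.4 and 12.9 with MMK-1. The groups overlapped, and the log2 fold change was −0.0061 (95% interval −0.13 to 0.11, adjusted p = 0.92 by limma). With upper-quartile scaling Slc30a1 did not pass either (−0.083, adjusted p = 0.193). It passed as lower with TMM scaling (−0.15, adjusted p = 0.0383), with the GC trend removed (−0.15, adjusted p = 0.0287) and with the length trend removed (−0.19, adjusted p = 0.0082).

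The manganese-related pair moved apart. The ratio of Slc39a8 to Slc30a10, importer to exporter, was 0.758 ± 0.0264 (SD, n = 3) in control and 1.30 ± 0.0121 (SD, n = 3) with MMK-1 (exact two-sided permutation p = 0.1). A ratio within a library does not depend on the scaling by a single factor, and it shows unequal change without saying which gene moved. The ratio of Slc39a4 to Slc30a1 was 0.734 ± 0.0198 (SD, n = 3) in control and 0.944 ± 0.147 (SD, n = 3) with MMK-1, where the spread was larger (exact two-sided permutation p = 0.1). The ratios were chosen after their values were seen.

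**Figure D3:**
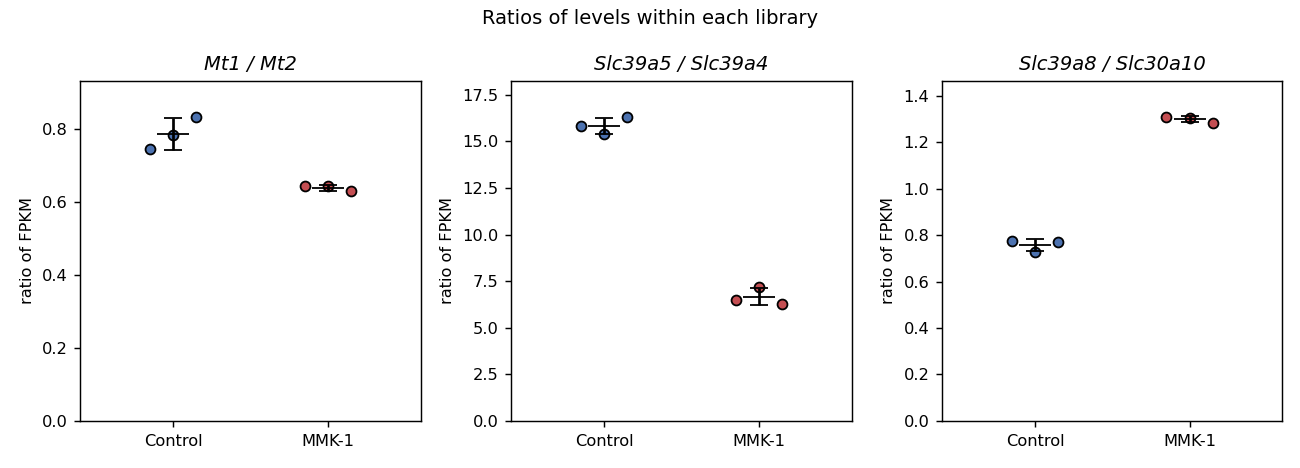
Ratio of FPKM of 2 genes within each library (vertical axes, from 0) in control (blue) and MMK-1 libraries (red), with the mean and SD of 3 libraries. Mt1 to Mt2 and Slc39a5 to Slc39a4 are lower with MMK-1, and Slc39a8 to Slc30a10 is higher, with no overlap in any panel.

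Of the SLC39 and SLC30 families, 23 genes were listed and 19 were tested. In all, 9 rose, 5 fell and 5 did not pass an adjusted p of 0.05, against 48.5% higher and 24.7% lower over all genes tested. The split was 8 higher and 8 lower with upper-quartile scaling and 7 and 9 with TMM scaling. It was 5 and 9 with the GC trend removed and 4 and 9 with the length trend removed. How many of all genes pass under each of these settings is not given, so nothing is read from these changes in the split. Of the 9 that rose, Slc39a6, Slc39a8, Slc39a11 and Slc30a7 lost the call with the GC trend removed, and these and Slc39a14 with the length trend removed. Among 11 SLC39 genes tested, 6 rose, and Slc39a5 was the 1 that fell, with a median log2 fold change of 0.15. Among 8 SLC30 genes tested, 3 rose and 4 fell, with a median of −0.062. These 2 medians lie on both sides of the 0.13 of all genes.

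Slc30a2, which loads zinc into vesicles, was the 1 transporter past a fold change of 2. Its FPKM was 34.1, 34.6 and 34.1 in control libraries and 12.4, 13.0 and 14.2 with MMK-1. The log2 fold change was −1.31 ± 0.0524 (SE), and the adjusted p was 1.1e-07 by limma. Slc30a4, also a vesicular carrier, rose from 17.0, 16.7 and 17.5 FPKM to 24.9, 24.0 and 20.4, a log2 fold change of 0.41. The other SLC30 genes that rose were Slc30a9 (0.38) and Slc30a7 (0.30), and the others that fell besides Slc30a10 were Slc30a6 (−0.28) and Slc30a5 (−0.12). Slc30a5, Slc30a6 and Slc30a7 encode carriers of the secretory pathway.

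Slc39a7, which releases zinc from the endoplasmic reticulum, rose from 48.7, 46.9 and 46.8 FPKM to 57.7, 58.5 and 66.5 (log2 fold change 0.35, adjusted p = 5.5e-04 by limma). Slc39a14, an importer of zinc, iron and manganese, rose from 29.99, 29.3 and 28.8 FPKM to 35.4, 36.9 and 39.2 (log2 fold change 0.33, adjusted p = 2.4e-04 by limma). Slc39a6 (0.27, adjusted p = 0.0111 by limma) and Slc39a11 (0.15, adjusted p = 0.0328 by limma) also rose. Slc39a11 lost the call when any 1 control library was left out (adjusted p between 0.0520 and 0.124), with the replicate block (0.0637), with no filter (0.0609) and under both other scalings, and Slc39a6 lost it with TMM scaling (0.0798). Slc30a5 lost the call with the replicate block (0.0582) and without control replicate 2 (0.137), control replicate 3 (0.127) or MMK-1 replicate 1 (0.0839). Slc39a1 (0.07), Slc39a3 (−0.15), Slc39a9 (−0.05) and Slc39a13 (−0.12) did not pass. Slc39a2, Slc39a10, Slc30a3 and Slc30a8 were below the filter, and Slc39a12 was not analysed here. Slc39a10 had 189, 142 and 158 fragments in control and 249, 241 and 227 with MMK-1.

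**Figure D4:**
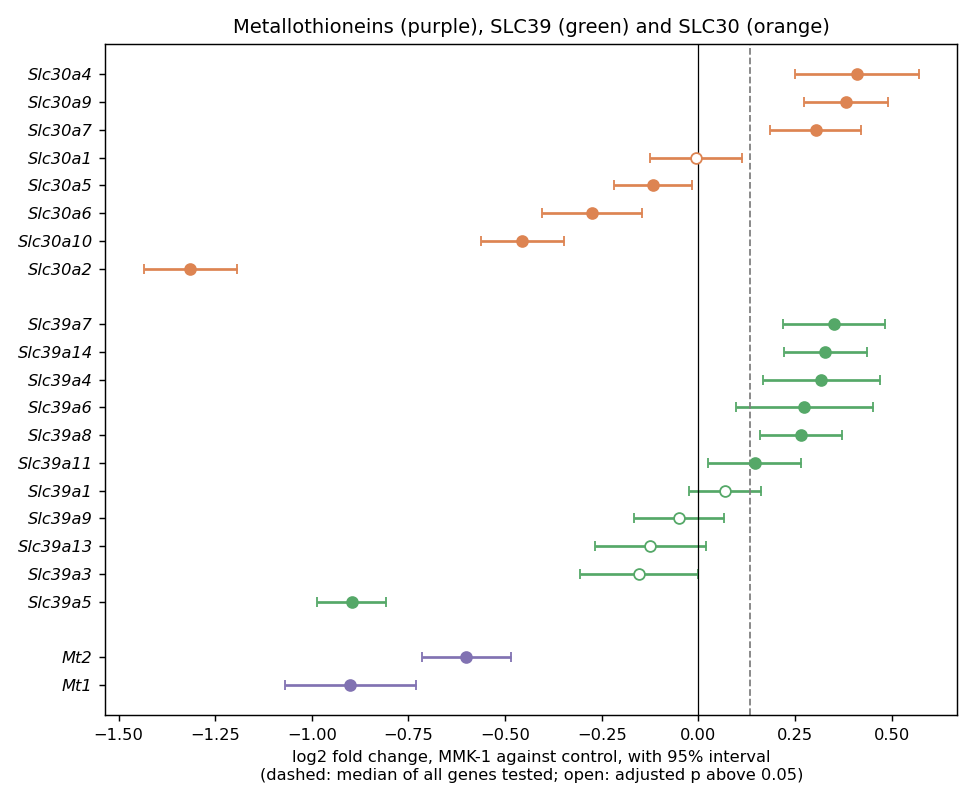
Log2 fold change with its 95% interval (horizontal axis) for Mt1, Mt2 and every tested SLC39 and SLC30 gene, with open points for an adjusted p above 0.05 and a dashed line at the median of all genes tested (0.13). Slc30a2 at −1.31, Slc39a5 at −0.90 and Mt1 at −0.90 lie farthest to the left.

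Other genes linked to metals were read from fixed lists in the same fit, in which 48.5% of all genes tested rose and 24.7% fell. Of 9 tested genes in a list of MTF1 and its targets, 3 rose and 5 fell, with a median log2 fold change of −0.20. Besides Mt1, Mt2 and Mtf1, the genes that fell were Ndrg1 (−0.42), a stress response gene, and Gclc (−0.21), the catalytic subunit of glutathione synthesis. Selenoh (0.69) and Selenow (0.12), which encode selenoproteins, and Csrp1 (0.39), which encodes a LIM domain protein, rose. The value of Selenow is below the median of all genes tested in this fit (0.134). Slc30a1 did not pass. Slc39a10 and Slc40a1, the iron exporter gene, were under the filter.

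Of 11 tested genes of copper handling, 1 rose and 6 fell, with a median of −0.18, and the shares of 48.5% and 24.7% over all genes apply to the counts of this paragraph too. Atp7a (0.48), a copper-exporting ATPase gene, rose, whereas Ccs (−0.68), the copper chaperone gene, and Sod1 (−0.55), the gene of the copper and zinc enzyme it loads, fell beside Mt1 and Mt2. Metallothionein genes also respond to glucocorticoids and oxidative stress. Of 7 tested genes of the glucocorticoid response, 3 rose and 3 fell (median −0.011), with Dusp1 (0.73) and Klf9 (0.59) the highest and Sgk1 (−1.49) and Fkbp5 (−0.38) the lowest. Of 9 tested genes of the oxidative stress response, 3 rose and 4 fell (median 0.033), with Slc7a11 (0.99) and Hmox1 (0.83) the highest and Gclm (−0.91) and Srxn1 (−0.73) the lowest. All of these medians are below the 0.13 of all genes tested.

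The KEGG term for mineral absorption in the annotation of the table held 46 genes, 4 of them from the set (Mt1, Mt2, Slc30a1 and Slc39a4). It was looked at after its values could be seen. Of 32 genes tested, 12 rose and 17 fell, with a median of −0.14. The shares over all genes tested were 48.5% and 24.7%. Past a fold change of 2 were 4 higher genes, Cybrd1 (3.36), Steap1 (2.01), Steap2 (1.61) and Slc46a1 (1.17). S100g (−3.08) and Clcn2 (−1.18), a chloride channel gene, were the 2 lower ones. Cybrd1, the ferric reductase of the brush border, had 1.74, 1.94 and 1.57 FPKM in control and 27.6, 27.1 and 26.6 with MMK-1. Below that fold, iron and copper genes of the term moved both ways. The ferritin genes Fth1 (−0.54) and Ftl1 (−0.67), the ferroxidase gene Heph (−0.50) and the copper-exporting ATPase gene Atp7b (−0.18) fell, whereas the heme oxygenase genes Hmox1 (0.83) and Hmox2 (0.39), Atp7a (0.48) and the iron importer gene Slc11a2 (0.35) rose.

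The medians of the enterocyte, stem cell and Paneth cell lists were −1.21, 1.72 and 1.70 on the log2 scale. Against 48.5% higher and 24.7% lower over all genes tested, goblet cell markers rose for 6 and fell for 2 of 8 tested (median 0.25), and enteroendocrine markers rose for 6 and fell for 0 of 9 tested (median 0.34). Tuft cell markers were all under the filter, with sums of 1.496 to 1.70 FPKM in control and 2.03 to 2.35 with MMK-1. Leukocyte markers summed to 6.21 to 6.74 FPKM in control and 2.47 to 3.32 with MMK-1, of which Cd68 and Itgam were tested and fell, while Ptprc, the pan-leukocyte marker, had a mean of 0.0076 and 0.0031 FPKM. Mesenchymal markers summed to 5.76 to 6.22 and 3.62 to 5.20 FPKM, and Vim (−0.25), the 1 tested, fell. Within the marker lists, Apoa1 and Anpep, genes of a lipoprotein and a brush-border peptidase, fell by 2.62 and 2.84 on the log2 scale, and Alpi, the intestinal alkaline phosphatase gene, fell by 0.96.

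Without MMK-1 replicate 3, the library that stood apart, the log2 fold change was −0.90 for Mt1, −0.61 for Mt2, −0.22 for Mtf1, −0.92 for Slc39a5 and −0.43 for Slc30a10. Slc39a4 stood at 0.26, Slc39a8 at 0.30 and Slc30a1 at 0.036, and the difference for Mt4 was −3.17. No call among the tested genes of the set changed. Of the 19 transporters tested, 9 rose and 7 fell, against 9 and 5 in the reported fit. The share of all genes called in this fit is not given, so nothing is read from these counts.

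**Figure D5:**
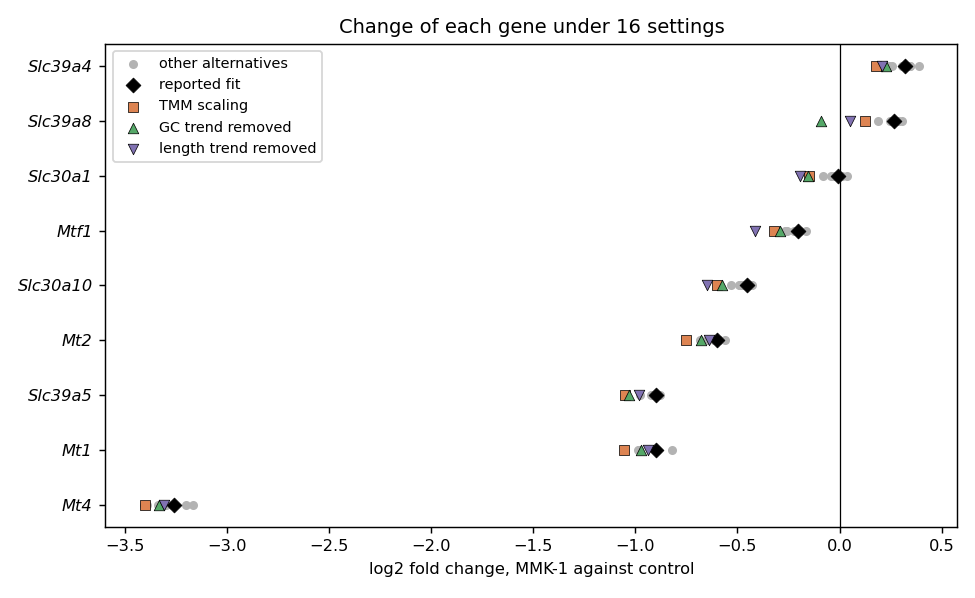
Log2 fold change of MMK-1 against control (horizontal axis) for the 9 genes that passed the filter under 16 settings, with the reported fit as a diamond. Mt4 stays between −3.40 and −3.17, whereas Slc39a8 crosses 0 with the GC trend removed and Slc30a1 lies on both sides of 0.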

How the data were processed

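RNA from organoids (VAHTS library kit, Illumina NovaSeq, paired-end reads) was measured in 3 control and 3 MMK-1 libraries. The authors deposited FPKM values per gene, which scale fragments by gene length and library total. The submitters' processing notes name HISAT2, HTSeq, DESeq2, R 3.2.0 and mm10, without saying what each did. No column of another sample was present (0 unused).

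Whole fragments were recovered from the FPKM steps for all 20676 genes above 0 in any library, to within 0.001 of a whole number. In simulated libraries, 98.1% of 5938 genes came back with the same fragments.

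The test was limma 3.58.1 (R 4.3.3), with a trend, on log2(FPKM + 1) over the 10551 genes that averaged 1 FPKM or more. It used no replicate block. P-values were Benjamini-Hochberg adjusted over all genes tested, and fold changes understate those of low genes. In simulated data on 10551 genes, 93.5% of 200 genes changed 4-fold passed a fold change of 2 with p of at most 0.05. Rose and fell mean an adjusted p of at most 0.05. Permutation tests were exact and two-sided. The 10 genes, the lists and the rules were chosen with earlier results of these data known. Named were all 10 genes, every listed SLC39 and SLC30 gene, the 2 largest changes in each direction of the MTF1, copper, glucocorticoid and oxidative stress lists (the rule did not cover cell type markers), the neighbours of the cluster and the 5 genes most like Mt4, and others were named after their values were seen. Alternatives were other scalings (upper quartile, TMM), filters, a pseudocount of 0.1, voom on the recovered fragments, removal of GC and length trends, a replicate block and leaving out each library.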

Additional observations from a re-analysis of the deposited data

How the results depend on the processing

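Over 15 alternatives, the log2 difference of Mt4 lay between −3.40 and −3.17. Mt1 (−1.05 to −0.82), Mt2 (−0.75 to −0.56), Slc39a5 (−1.05 to −0.88), Slc30a10 (−0.65 to −0.43), Mtf1 (−0.42 to −0.17) and Slc39a4 (0.18 to 0.39) kept their direction and stayed past the threshold in all of them. Slc39a8 reversed to −0.089 with the GC trend removed, and Slc30a1 ranged from −0.19 to 0.036. The GC trend was fitted on the 96.3% of tested genes with a GC value. Of all genes tested, 358 were higher past a fold change of 2. This was 230 with TMM scaling, 676 with a pseudocount of 0.1, 726 with limma-voom on the recovered fragments, 220 with the GC trend removed and 236 with the length trend removed. The 385 lower genes stayed between 369 and 500. Zinc transporters that rose (9) numbered 5 with the GC trend removed and 4 with the length trend removed. Those that fell (5) numbered 8 with upper-quartile scaling and 9 with TMM scaling, with the GC trend removed or with the length trend removed. The shares of all genes called by the adjusted p under these settings are not given. The transporter counts therefore cannot be set apart from a shift of all genes. For GC, length and the pseudocount, the cause was not tested.

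Leaving out 1 library at a time gave 336 to 434 higher and 369 to 393 lower genes past the fold threshold. By the adjusted p, 8 to 9 transporters rose and 4 to 7 fell. How many of all genes pass by the adjusted p in these fits is not given, so nothing is read from these transporter counts. Between samples with the same replicate number, deviations correlated with r = 0.025, −0.040 and 0.028. The MMK-1 library that stood apart weighs heavily on the deviations of its group. These values therefore cannot decide whether the replicate numbers pair the samples. With a replicate block, 359 genes were higher and 385 lower past the fold threshold. By the adjusted p, 8 transporters rose and 4 fell with the block, and no call among the 10 genes changed. The share of all genes called by the adjusted p with the block is not given, so nothing is read from its transporter counts either. Mt3, Slc30a3 and Slc30a8 were left out by the filter of 1 FPKM, and their few fragments (at most 8, 30 and 1 in a library) limit what can be seen.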
